A study of Mus musculus with 28 samples.

Results

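A set of 6382 genomic regions was open in all 4 libraries of mouse embryonic fibroblasts (MEFs) and was called in none of the 24 libraries made after reprogramming had begun. The regions were selected on exactly those calls. Overlapping peaks of all 28 libraries were merged into 172177 regions, and a library called a region if at least 1 of its peaks touched it. The 6382 regions were 3.71% of all merged regions and 22.9% of the 27904 regions called in 4 of 4 MEF libraries. Both shares describe the selection and carry no test. These regions are called lost regions here. The word refers to peak calls up to day 10, and no later time was measured.

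The libraries were made by ATAC-seq, an assay whose transposase cuts and tags DNA where chromatin is accessible. All cells, controls included, derived from Tet2-/- OKSM; rtTA fibroblasts of embryonic day 12.5 embryos, with the strain background given as V6.5 129XBI/6. The untreated MEFs were the day 0 group. The other groups were day 5 and day 10 cells transduced with pMXs retrovirus that was empty, encoded wild-type Tet2 (Tet2-WT) or encoded Tet2-E, a mutant described by the submitters as stalling, with 4 libraries in each of the 7 groups. The later cells were grown on Mito-C-treated MEF feeders in medium with LIF, PD0325901 (1 µM) and CHIR99021 (3 µM), and doxycycline at 2 µg/mL induced the reprogramming factors. They were sorted on SSEA1-RFP. The isolation label of the MEFs reads "None". Every library used 75000 cells, and all cells were kept at 5% oxygen. Transduction, medium, feeders and sorting changed together with time between the MEFs and day 5, and their parts cannot be told apart. Whether replicates came from different cultures or animals is not stated in the labels. The p-values therefore reflect only how far libraries of a group differed, a spread that may be technical.

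Fibroblast identity is held by many enhancers, short stretches of open DNA at which transcription factors such as those of the AP-1 family bind. The reprogramming factors Oct4, Klf4, Sox2 and c-Myc (OKSM) turn fibroblasts towards pluripotency, and closure of fibroblast enhancers is known as an early step of that path. TET enzymes oxidise 5-methylcytosine in DNA, and loss of that methylation accompanies the opening of many enhancers. Promoters of broadly expressed genes, in contrast, are usually open in most cell types and tend to give wide ATAC-seq peaks.

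The deposited lists held 41345 to 72140 peaks per MEF library, 41414 to 60154 at day 5 and 27809 to 50552 at day 10. The expected fragment pileup at an average position, inferred from the lists and used here as relative depth, was 0.394 to 0.660 in MEFs, 0.746 to 1.04 at day 5 and 0.361 to 0.768 at day 10. By this measure the day 5 libraries lay above every MEF library, and the day 10 range overlapped the MEF range. The median pileup at regions called in all 28 libraries was 23 to 28 at day 5 and 20 to 31 in MEFs, and the lowest pileup called at average background was 6 to 7 at day 5 and 5 in MEFs. Signal at shared regions was thus no higher at day 5, over a higher background. Of the 27904 regions called in 4 of 4 MEF libraries, single day 5 libraries called 50.1% to 61.8% and single day 10 libraries 39.8% to 49.7%.

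Fibroblast regions mostly fell at the ends of the range of later calls. The lost regions and the 7740 regions called in all 24 later libraries (27.7%, termed kept regions) were the 2 most frequent outcomes. A further 2300 regions (8.24%) were called in exactly 1 later library and 1216 (4.36%) in 2. Each count from 5 to 19 later libraries held at most 1.74% of the regions. Another class used for comparison, the 4380 regions called in at least 1 day 5 library and in 0 of 12 day 10 libraries, is termed late-lost.

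**Figure D1:**
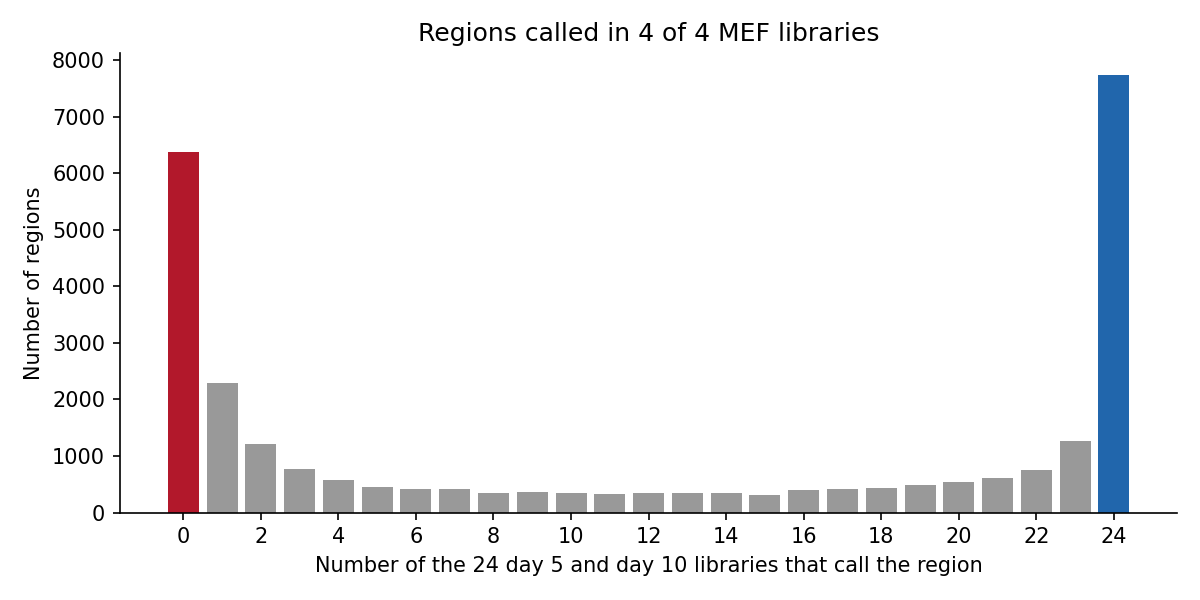
Number of regions called in 4 of 4 MEF libraries (vertical axis) by how many of the 24 day 5 and day 10 libraries called them (horizontal axis). The 6382 lost regions (red, at 0) and the 7740 kept regions (blue, at 24) stand above every count between them (grey).

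The lost regions were moderate, narrow peaks in the fibroblasts. The authors' fold is the summit pileup plus 1 over the local background plus 1, and it ranks peaks within 1 list. The median fold of the lost regions was 9.02, 7.31, 8.01 and 7.93 in MEF libraries 1 to 4. Late-lost regions had medians of 10.7, 8.61, 9.68 and 9.33, and kept regions 10.5, 9.39, 10.3 and 9.95. Lost regions thus had the lowest median of the 3 classes in 4 of 4 MEF libraries. The 3 classes leave out regions called in only some later libraries, including at least 1 at day 10. Over the 4 MEF libraries, the median fold was 8.03 in lost regions. It was 7.71 to 7.98 at each count from 13 to 22 later libraries, and 8.21 to 9.45 at each from 1 to 9. A low fold was thus not particular to the lost regions. Their median summit pileup was 18, 11, 14 and 13 fragments, against 23, 14, 18 and 16 in late-lost and 31, 20, 25 and 23 in kept regions. Within their own lists, their median peak stood at percentile 74.2, 55.1, 64.6 and 62.7 by fold.

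Lost regions were also the narrowest of the 3 classes. The strongest peak in a lost region had a median width of 264, 202, 212 and 204 bp in MEF libraries 1 to 4, against 319, 248, 262 and 252 bp in late-lost regions. Kept regions had median widths of 518, 396, 422 and 408 bp. The order of the 3 classes was the same in each of the 4 MEF libraries. At most 1 peak per MEF library lay in 5819 lost regions (91.2%), 90.1% of late-lost regions and 68.1% of kept regions. By the rule, lost regions were merged from MEF peaks only. In late-lost and kept regions later peaks could join separate MEF peaks. The strongest peak, whose fold and width are given, could there be picked from more MEF peaks. The part of this in the differences was not tested. After merging, lost regions were 139 to 1024 bp wide, with a median of 334 bp. The summits of the 4 MEF libraries lay within a median span of 67 bp, and within 50 bp in 2114 lost regions (33.1%), 35.9% of late-lost regions and 29.3% of kept regions.

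**Figure D2:**
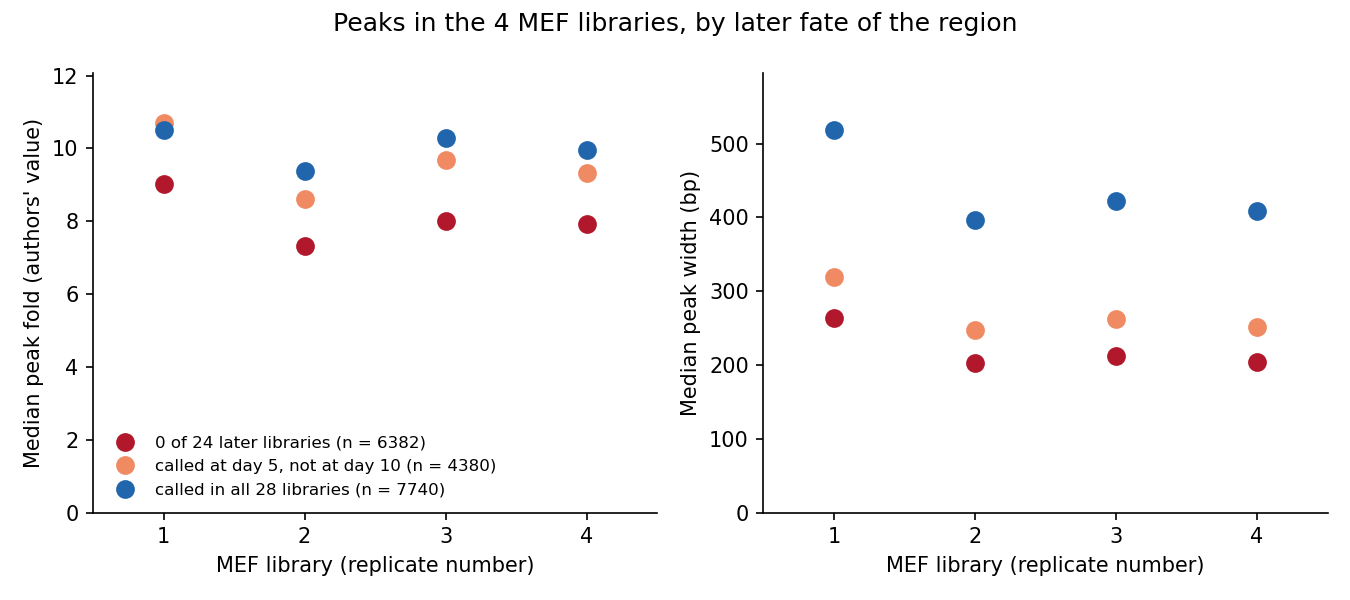
Median of the authors' peak fold (left) and median peak width in bp (right) in each of the 4 MEF libraries, for 6382 lost regions (red), 4380 late-lost regions (orange) and 7740 kept regions (blue). In every library the lost regions lie lowest in both panels, for example at 264 bp against 518 bp for kept regions in library 1.

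The share of lost regions was then followed across the 27904 fibroblast regions, divided into 10 bins of equal size. By strength, measured as the median percentile over the 4 MEF lists, the share was 28.3% in the weakest bin, 31.5% in the next, and fell to 13.5% and 8.57% in the 2 strongest bins. The share of kept regions rose from 10.9% to 47.7% over the same bins. By width the range was larger. Lost regions made up 39.9% of the narrowest bin (100 to 162 bp), 27.5% of the fifth bin (247 to 281 bp) and 2.11% of the widest (536 to 1484 bp). The kept share rose from 3.80% to 77.9%.

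Strength and width are related, so both were divided at their medians, percentile 70.5 and 281 bp. Among strong peaks, 32.1% of the narrow regions (1411 of 4401) and 10.6% of the wide ones (1016 of 9551) were lost. Among weak peaks, the shares were 35.3% (3364 of 9540) and 13.4% (591 of 4412). Width therefore went with a difference of similar size in both strength classes, whereas strength made little difference within a width class. A wider region also offers more base pairs for a later peak to touch. When a call required peaks over at least 50% of a region, 6478 regions qualified and made up 47.0% of those called in 4 of 4 MEF libraries. The requirement held for MEF calls as well, so fewer regions counted as called in 4 of 4 MEF libraries. The shares by width and strength were not taken again under it.

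**Figure D3:**
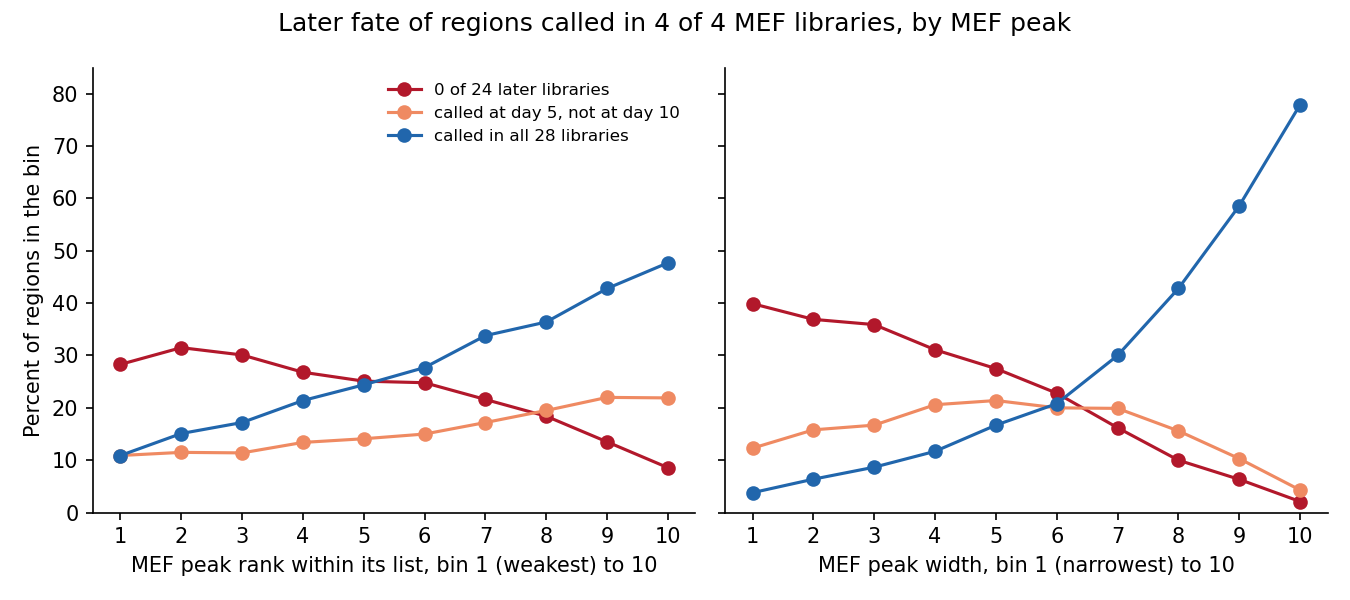
Percent of the regions in each of 10 equal bins (vertical axis) that were lost (red), late-lost (orange) or kept (blue), with bins ordered by MEF peak strength (left) or MEF peak width (right). The lost share falls from 39.9% to 2.11% across width bins and from 28.3% to 8.57% across strength bins.

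Strong fibroblast peaks were nevertheless among the lost regions. A median fold of at least 10 was found in 1318 of them (20.7%), against 33.4% of all regions called in 4 of 4 MEF libraries, and a fold of at least 15 in 80 (1.25%, against 4.09%). The median fold ran from 3.60 to 21.1 over the lost regions. The 167 lost regions with a median percentile of 95 or more made up 7.71% of the 2167 fibroblast regions that strong. At the other end, 1803 lost regions (28.3%) ranked under the middle of their MEF lists, which was 29.9% of the 6035 fibroblast regions there.

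The 10 most strongly open lost regions were taken as those with the highest fold in their weakest MEF library. First was chr6:96003486-96003805 (mm9), 320 bp wide, with folds of 21.1, 19.9, 22.8 and 20.1 in MEF libraries 1 to 4 and pileups of 40, 31, 39 and 30. At chr6:122565815-122566128 the folds were 22.4, 21.7, 20.5 and 18.9, with pileups of 54, 42, 46 and 40. At chr8:63343696-63344070 they were 22.8, 18.5, 24.5 and 18.9, and its pileups of 64, 38, 63 and 47 included the highest of the 10 regions in library 1. All 3 ranked at percentile 99.7 or above in each MEF list, with none of 24 later libraries calling them.

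Next came chr6:146134096-146134473, with folds of 21.4, 17.8, 20.3 and 19.6 in MEF libraries 1 to 4. The region chr13:32976698-32976991 was less even, with folds of 24.8, 20.9, 18.6 and 17.1. The region chr16:85148904-85149378 was among the most even of the 10, with folds of 17.0, 17.3, 17.7 and 18.7. It was 475 bp wide, above the median of the lost regions. The remaining 4, chr15:97390572-97390923, chr10:124693002-124693321, chr17:73621076-73621599 and chr17:42380833-42381171, had folds between 15.6 and 22.4. Peaks in these 10 regions had summits within 14 to 62 bp of each other across the MEF libraries.

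The lost regions with the lowest fold in any MEF library were of different kinds. The region chr8:98227488-98227842 had folds of 3.28, 3.72, 4.24 and 3.47, the lowest of any lost region by its weakest library, and stood at percentile 2.18 or lower in each MEF list by fold. Its pileups of 18, 15, 19 and 14 were nevertheless at or above the medians of the lost regions. At chr14:14388023-14388241 the folds were 3.54, 5.77, 6.97 and 7.79, so library 1 was the low one. At chrX:33499688-33499945 they were 3.61, 6.46, 6.66 and 9.60, again lowest in library 1. The widest lost region was chr8:29409910-29410933, at 1024 bp, with folds of 8.61, 8.65, 8.90 and 7.08.

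Just outside the rule were the regions with 1 later call. The strongest of them, chr12:102721785-102722109, had a median MEF fold of 19.4, was at 18.1 in its weakest MEF library, and was called by Tet2-E day 5 replicate 2 alone. The same library made the only later call at chr16:86138430-86138741 (MEF folds 19.4, 16.4, 19.3 and 18.3) and at chr1:65400758-65401193 (18.8, 17.6, 20.5 and 18.3). These values lie inside the range of the 10 strongest lost regions. Over all 2300 regions with 1 later call, the median MEF fold was 8.96, against 8.03 for the lost regions.

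Single later calls came mainly from day 5 and from few libraries. Of the 2300, 2086 (90.7%) were made at day 5 and 214 (9.30%) at day 10. Replicates 3 and 4 of the empty vector at day 5 made 507 and 353, and replicates 3 and 4 of Tet2-WT at day 5 made 484 and 232. These 4 libraries together accounted for 1576 (68.5%). They also called the largest shares of all 27904 fibroblast regions, at 61.8% and 57.8% with the empty vector and 60.2% and 57.4% with Tet2-WT. No other later library called more than 55.9% of those. Their many calls were thus not particular to these regions. The calls were weak where they occurred, with a median rank per library at percentile 10.2 to 29.4 of its own list at day 5 and 8.96 to 26.8 at day 10. Without these 4 libraries, which were singled out after their values were seen, 8545 regions met the rule in place of 6382. The rule then asked for fewer absences, which by itself tends to raise the number.

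How firmly a call or its absence was measured was read from libraries that played no part in a selection. Each library was left out in turn and the regions were chosen with the other 27. Regions chosen without MEF library 1 (6596) were called in it in 96.8% of cases. The shares were 68.0% in library 2 (of 9380), 87.4% in library 3 (of 7300) and 83.6% in library 4 (of 7631). Library 2 was the shallowest MEF library (relative depth 0.394) and library 1 the deepest (0.660). Regions called in every other library were called in the MEF library left out in 96.2% to 99.9% of cases. Omitting all replicate 2 libraries raised the number of lost regions from 6382 to 9866. Such an omission asks for fewer calls and fewer absences, which by itself tends to raise the number. Without replicates 1, 3 or 4 it was 6924, 8657 or 8438.

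In later libraries few of the regions were called in the library left out. A day 5 library left out of the selection called 0.576% to 7.36% of the regions chosen without it, with a median of 1.20%. A day 10 library called 0.0939% to 0.592%, with a median of 0.250%. The highest values were 7.36% and 5.24% in replicates 3 and 4 of the empty vector at day 5, and 7.05% and 3.51% in those of Tet2-WT. No day 10 library reached the median of the day 5 libraries.

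A whole day was then left out. Of 6662 regions present in 4 of 4 MEF lists and absent from 12 of 12 day 5 lists, 6382 (95.8%) were also called in 0 of 12 day 10 libraries. The other 280 were called mostly once: 214 in 1 day 10 library, 37 in 2 and 29 in 3 or more. Only 7 were called in at least 6 of 12 and none in all 12. In the opposite direction, of 10762 regions present in 4 of 4 MEF lists and absent from 12 of 12 day 10 lists, 59.3% had 0 calls at day 5. There, 2086 were called in 1 day 5 library, 978 in 2, 1316 in 3 or more, and 302 in at least 6. Regions without a call at day 5 thus rarely had one at day 10, while regions without one at day 10 had often been called in some day 5 library. Relative depth was mostly lower at day 10 (0.361 to 0.768, against 0.746 to 1.04 at day 5), and its part here was not tested. Of the 10762 regions, replicates 3 and 4 at day 5 called 1858 and 1432 with the empty vector, and 1689 and 1070 with Tet2-WT. No other day 5 library called more than 893. The same 4 libraries also called the largest shares of all 27904 fibroblast regions, 57.4% to 61.8%.

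The design asks whether returning Tet2 to the cells altered this loss. For the 6662 regions chosen without day 10, the empty vector libraries called 0.751%, 0.450%, 0.510% and 0.255% at day 10 (mean 0.492% ± 0.204, SD, n = 4). Tet2-WT libraries called 0.630%, 0.961%, 0.510% and 0.240% (0.585% ± 0.299, SD, n = 4). Tet2-E libraries called 0.946%, 0.630%, 0.270% and 0.210% (0.514% ± 0.342, SD, n = 4). The 3 groups overlapped.

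At day 10, Tet2-WT differed from the empty vector by 0.0938 percentage points, and the 2-sided exact permutation p was 0.714. Tet2-E differed from the empty vector by 0.0225 points (exact permutation p = 0.943) and from Tet2-WT by -0.0713 points (exact permutation p = 0.829). The 6 contrasts of both days were adjusted together by the Benjamini-Hochberg method, and each had an adjusted p of 0.943 in the exact permutation test. Each day 10 difference was smaller than the SD of either group it compared.

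For the 10762 regions chosen without day 5, empty vector libraries called 3.10%, 3.72%, 17.3% and 13.3% at day 5 (9.35% ± 7.05, SD, n = 4). Tet2-WT libraries called 5.27%, 4.04%, 15.7% and 9.94% (8.74% ± 5.29, SD, n = 4). Tet2-E libraries called 5.63%, 8.30%, 3.08% and 3.65% (5.17% ± 2.36, SD, n = 4). Replicates 3 and 4 were the high ones in the empty vector and Tet2-WT groups, and the low ones for Tet2-E. The same held for their shares of all 27904 fibroblast regions.

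The day 5 difference between Tet2-WT and the empty vector was -0.611 points (exact permutation p = 0.886). The difference between Tet2-E and the empty vector was -4.18 points (exact permutation p = 0.314), and its difference from Tet2-WT was -3.57 (exact permutation p = 0.229). None passed. With 1 replicate number omitted, Tet2-E minus empty vector ran from -6.60 (without replicate 1) to -0.791 (without replicate 3), and was -6.31 and -2.13 without replicates 2 and 4. Tet2-E minus Tet2-WT ran from -5.69 (without replicate 2) to -0.641 (without replicate 3), and was -5.11 and -2.35 without replicates 1 and 4. With the same number of peaks taken from each library, these 2 differences were -1.79 and -0.532. The smallest p that 4 against 4 libraries allow is 0.0286. After adjustment over 6 contrasts, a single differing contrast could not have gone below 0.171, so these tests could not have passed a difference present in 1 contrast alone.

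**Figure D4:**
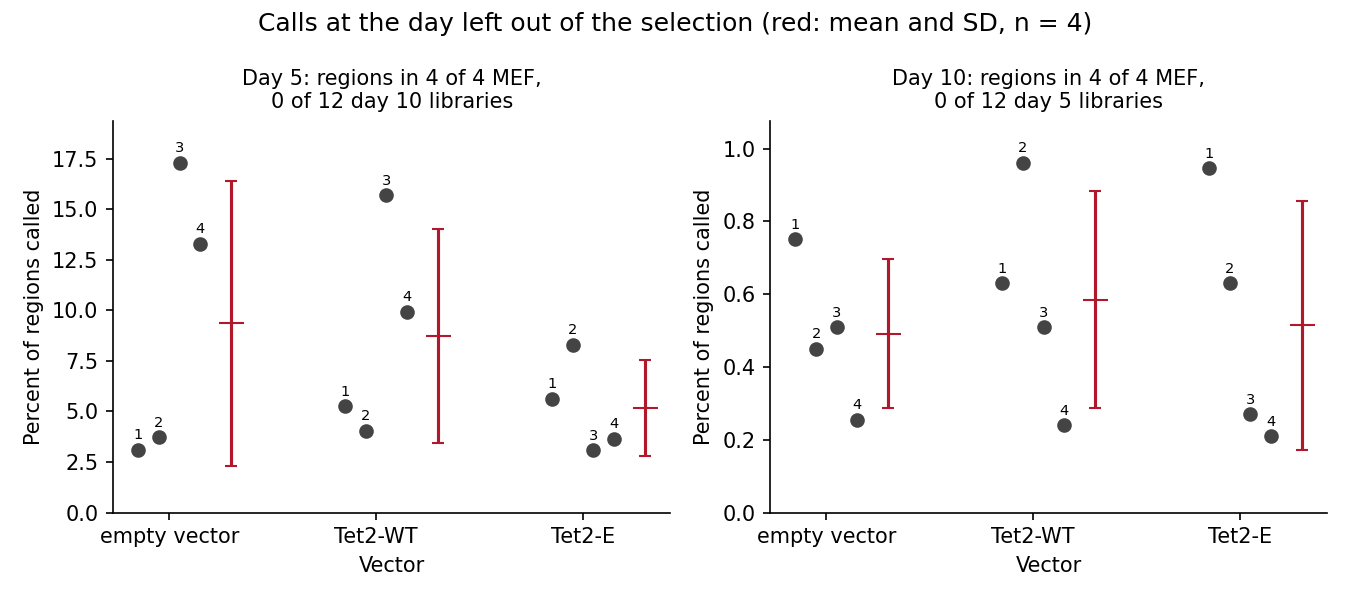
Percent of regions called in each later library (dots, numbered by replicate) by vector, for regions chosen without that day, with the group mean and SD in red (n = 4). Day 5 is on the left (3.08% to 17.3%) and day 10 on the right (0.210% to 0.961%), on separate scales, and the vector groups overlap in both.

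A whole vector was left out as well. With the empty vector left out, 7599 regions were called in 4 of 4 MEF and 0 of the other 16 later libraries, and 1217 of them were called in any of the 8 empty vector libraries. The values were 1059 of 7441 for Tet2-WT and 421 of 6803 for Tet2-E. Most were called in only 1 library: 1008 for the empty vector, 918 for Tet2-WT and 374 for Tet2-E. Replicates 3 and 4 at day 5 made 507 and 353 of these single calls for the empty vector, and 484 and 232 for Tet2-WT. Those libraries also called the largest shares of all fibroblast regions. Calls in 3 or more of the 8 libraries were found in 26, 16 and 7 regions, and no region was called in all 4 libraries of the omitted vector at day 5 or at day 10. These 3 selections share most of their libraries, and their difference was not tested.

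Depth moved with the day 10 values. Over the 12 day 10 libraries, the share called of the 6662 regions correlated with relative depth (Pearson's r = 0.845, permutation p = 0.00058, adjusted p = 0.00116; Spearman's rho = 0.884, permutation p = 0.00026, adjusted p = 0.00104). After omission of the 2 libraries whose depth lay farthest from the median, Pearson's r was 0.753. Over the 12 day 5 libraries r was 0.0114 (permutation p = 0.915, adjusted p = 0.915) and rho 0.252 (permutation p = 0.429, adjusted p = 0.573), with r = 0.0197 after the same omission. Adjustment was over 4 relations. The part of depth in the vector values was not tested. The day 10 shares were small at every depth, from 14 to 64 regions per library.

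The absence of a call was set against the height each region would need. The MEF pileup of each lost region was scaled to each later library by the median pileup of the kept regions there. Regions chosen for their MEF calls nearly all clear the lowest called pileup at that full height, so the values at a reduced height are given. At 50% of it, 43.8% to 79.7% of lost regions would exceed the lowest pileup called at average background in a day 5 library, and 36.7% to 82.9% in a day 10 library. In all 24 libraries at once, 2341 (36.7%) would do so. A missing call thus marks a pileup under the calling threshold and does not give the size of the fall, so complete closure was not shown. Reads under uncalled regions were not analysed here.

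Regions without later calls were also counted by how many MEF libraries called them, of which only those with 4 are lost regions as defined here. They numbered 23726 with 1 calling MEF library, 7865 with 2, 5379 with 3 and 6382 with 4. As a share of all regions with that many MEF calls, they made up 71.0%, 53.0%, 43.1% and 22.9%. Their median fold rose from 5.42 through 6.00 and 6.54 to 8.03, and their median peak width was 161 bp with 3 MEF calls and 219 bp with 4. The required 4 of 4 calls thus left out 5379 regions that missed a single MEF library.

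Lost regions were found on all 20 chromosomes analysed. Chromosome 8 held the most, 500 of its 1941 fibroblast regions (25.8%). The share was lowest on chromosome 7 (16.6%, 287 of 1732) and chromosome 17 (17.4%, 199 of 1143), followed by chromosomes 4 and 19 (19.5% each). It was highest on chromosome 18 (30.7%, 295 of 962) and chromosome 12 (26.0%, 288 of 1109). The X chromosome, at 21.4% (128 of 598), lay between the autosomes. Chromosomes 7, 11 and 17 had kept shares of 34.5%, 35.0% and 32.9%, and chromosome 18 had the lowest kept share, 20.8%. Regions of a chromosome are not independent, and no test was made.

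**Figure D5:**
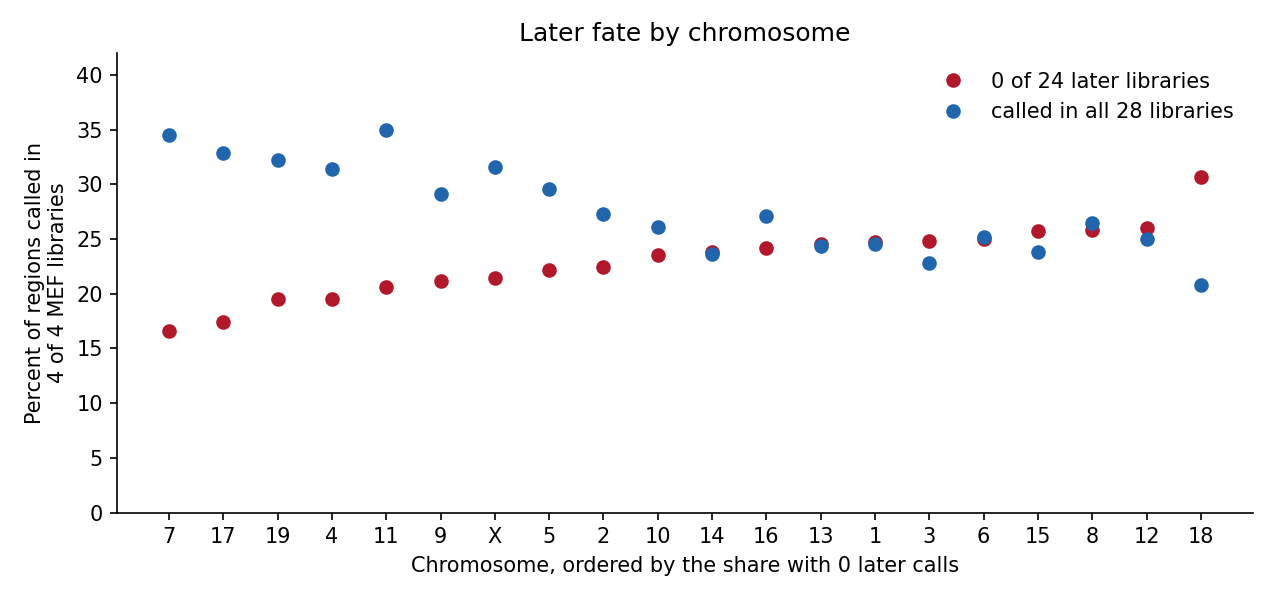
Percent of the regions called in 4 of 4 MEF libraries on each chromosome (horizontal axis, ordered by the lost share) that were lost (red) or kept (blue). The lost share runs from 16.6% on chromosome 7 to 30.7% on chromosome 18, and the kept share tends to be lower where the lost share is higher. Both are shares of the same regions, so a higher lost share by itself leaves less room for a kept one.

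Along the chromosomes, a lost region had a lost neighbour more often than a kept region did. Of the regions flanking a lost region in the order of fibroblast regions, 31.1% were lost (3970 of 12757), against 27.5% of those flanking a late-lost region, 2467 of the 15460 flanking a kept region, and 22.9% overall. For neighbours under 10 kb apart, the lost share was 30.9% beside lost, 28.4% beside late-lost and 15.0% beside kept regions. It was 21.3% over all neighbours that close. At gaps of 200 kb or more the same shares, in that order, were 39.6%, 34.7%, 28.4% and 33.8%. Lost regions were thus also more frequent where fibroblast regions were sparse. The median distance from a lost region to the next lost one was 89965 bp, and 614 (9.62%) had one within 10 kb. Late-lost regions lay as near to a lost region, at a median of 85604 bp and with 9.73% within 10 kb, so nearness to lost regions was not particular to the lost regions. The median distance to a kept region was 134138 bp, while kept regions lay 50684 bp from each other.

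Lost regions formed 4397 uninterrupted runs among the fibroblast regions, 3122 of them a single region. The other 3260 lost regions stood in runs of 2 or more, and 361 stood in the 63 runs of 5 or more. Runs of late-lost or kept regions are not given here for comparison. The longest runs, named here after their values were seen, held 11 and 10 lost regions. The run of 10 covered chr11:44539304-45697324 (1158 kb), with a median fold of 7.07 over its regions. A run of 9 covered chr5:131117742-131733791 (616 kb, folds 5.82 to 13.5), and 22 other regions inside it were called in at least 1 later library. A run of 8 covered only 169 kb, at chr15:64333085-64502140, with folds of 6.67 to 9.81.

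In windows of 500 kb, 3108 of the 4297 windows with a fibroblast region (72.3%) held at least 1 lost region, and 158 held 5 or more. The highest number was 9, in 2 windows. In chr15:64000001-64500000, 9 of 16 fibroblast regions were lost and 0 were kept. In chr8:129000001-129500000, 9 of 29 were lost and 5 kept. The leading member of the chromosome 15 window, chr15:64103051-64103618, had folds of 16.4, 11.2, 14.6 and 13.9. In 50 windows with 3 or more fibroblast regions every one was lost, among them chr11:112000001-112500000 and chr14:59000001-59500000 with 6 of 6 each. How many windows held 3 or more fibroblast regions is not given here, so the 50 carry no share.

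The distance to later open regions was measured as well. Newly open regions, called in 0 of 4 MEF and 24 of 24 later libraries, numbered 1992. From a lost region to the nearest of them the median distance was 403792 bp, and 17 lost regions (0.266%) lay within 1 kb of one. Within 10 kb the share was 2.48% of lost, 2.49% of late-lost and 2.39% of kept regions, and so about the same in each class. Another region called in at least 1 later library lay within 1 kb of 13.1% of lost, 17.7% of late-lost and 32.1% of kept regions, and within 10 kb of 64.9%, 71.3% and 78.7%. Regions called in at least 12 of 24 later libraries lay within 1 kb of 207 lost regions (3.24%), 4.11% of late-lost and 7.80% of kept regions. Later calls also chose the 3 classes, and a later peak that reached a MEF region took it out of the lost class. The order of the classes thus carries no test. Kept regions were also wider after merging, with a median of 731 bp against 334 bp for lost regions. The part of width in these shares was not tested. The annotation and sequence of mm9 were not used here, so the regions are given by position without genes or motifs, and the cell type labels were not checked against marker genes.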

How the data were processed

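ATAC-seq libraries were processed by the authors with Bowtie2, SAMtools, bedtools and MACS2 on the mouse build mm9, per the submitters' processing notes. Their versions and settings, including whether read ends were shifted for the transposase, were not given in the sources used here. The authors deposited 1 peak list per library. Each deposited peak has a fold (a ratio), a -log10 p, a -log10 q, a score (-log10 q times 10) and a summit position, and the lowest deposited -log10 q was 2.00. These values were used only to describe and rank peaks within a list.

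Peaks on chromosomes 1 to 19 and X (1272011) were merged across the 28 libraries at an overlap of 1 bp, and 4474 peaks on other sequences were left out. Coordinates count from 1. Whole summit pileups and local backgrounds were solved from each fold and -log10 p under the caller's Poisson model, within a tolerance of 0.0002 in -log10 p, and the commonest background served as relative depth. This depends on the fragment length set in the caller, which is not given. Python 3.11.15, numpy 2.4.6, pandas 2.3.3, scipy 1.17.1 and matplotlib 3.10.9 were used, and the scripts were tested on simulated data. No 2 lists were identical.

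The regions and lists were chosen with earlier results of these data known. Calls of MEF and later libraries define the lost regions, so no test compares them. Vectors were compared by 2-sided exact permutation tests on regions chosen without the tested day, at an adjusted p of 0.05. Correlations used 100000 permutations. Named regions were the 10 with the highest fold in their weakest MEF library, and, of the 5 weakest, 5 widest, 5 strongest with 1 later call and 5 densest windows of 500 kb, those given in the text. Percentages of regions depend on their number, and no interval is given for dependence between regions. Gene and motif lists planned for these regions were not applied, since neither sequence nor annotation of mm9 was used.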

Additional observations from a re-analysis of the deposited data

Results flagged for a closer look

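The median width of MEF peaks in the lost regions was 264 bp in MEF replicate 1, set apart from the other 3 MEF libraries, whose lowest value was 202 bp. The gap to the nearest library took up 0.839 of the range, above Dixon's 95% critical value for 4 samples. Peaks of that library were also the widest in late-lost regions (319 against 248 to 262 bp), kept regions (518 against 396 to 422 bp) and all fibroblast regions (343 against 258 to 275 bp), so the value is not particular to the lost regions. Relative depth was also highest in that library, at 0.660, and its part in the width was not tested. Of 22 groups of 4 examined in this way, 1 was set apart, and chance alone sets apart about 1 in 20.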

How the results depend on the processing

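The number of lost regions was within 1.5 times of 6382 under 3 changes of calling: 4550 with the 27809 strongest peaks of each library, 6478 with peaks over at least 50% of a region, and 6427 at a -log10 q of at least 3. Building regions from MEF peaks alone gives 6382 by construction, since a lost region holds no other peaks. The number ran from 6924 to 9866 when the libraries of 1 replicate number were omitted, and was above 1.5 times only without replicate 2. These omissions also loosen the rule, since fewer calls and absences are asked for. As a share of regions called in every MEF library, lost regions made up 29.1% with equal numbers of peaks, 47.0% with the 50% overlap and 24.4% to 28.9% with 1 replicate number omitted. Regions called in every MEF library numbered 15644 with equal numbers of peaks, against 27904 in the main setting. They were also fewer with the 50% overlap, which held for MEF calls too. The median width of lost regions, 334 bp, became 392 bp with equal numbers of peaks. It was 290 and 292 bp without replicates 1 and 2, and 310 to 359 bp otherwise. Their median fold, 8.03, became 10.3 with equal numbers of peaks and 9.48 with the 50% overlap, and was 7.59 to 8.07 otherwise. The late-lost and kept regions were not measured again under these changes.

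None of the 54 values of the 6 vector contrasts under these alternatives passed, and the lowest adjusted p was 0.343 (exact permutation tests). The direction turned in 8. At day 10, equal numbers of peaks gave -0.145 points for Tet2-WT minus empty vector and -0.228 for Tet2-E minus empty vector, and the 50% overlap gave 0.0454 for Tet2-E minus Tet2-WT. With 1 replicate number omitted, these day 10 contrasts ran from -0.0684 to 0.209, from -0.0781 to 0.0625 and from -0.251 to -0.00976, and Tet2-WT minus empty vector at day 5 from -1.49 to 0.222. Those fits compare 3 with 3 libraries, whose smallest p is 0.100. With replicate numbers as a replicate block, the differences stay as given (0.0938, 0.0225, -0.0713, -0.611, -4.18 and -3.57 points), every adjusted exact p was 1.00, and the smallest p of 4 pairs is 0.125. Over single regions, calls of same-numbered libraries deviated together by r of -0.0139 to 0.0902 in 24 pairs, none over 0.1. In 11 of the 24, r was higher than with any library of another number, so a weak shared part is not excluded. The labels tie the numbers to no shared source. The shares themselves do go with the number in part: replicate 4 was lowest at day 10 in all 3 vectors, and also shallowest. Alternatives that need the mm9 sequence or annotation were not run.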
